A study of Mus musculus with 8 samples.

Results

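The acute phase of the response to chest surgery was described by comparing mouse lung of 6 hours after surgery with mouse lung of 1, 3 and 7 days. The members were chosen by time point alone. They were 2 arrays of 6 hours, 1 after unilateral pneumonectomy (PNY) and 1 after sham surgery (SHAM, a thoracotomy in which no lung was removed), set against the other 6 arrays, so that all 8 arrays of the series took part. Each array carried lung RNA pooled from 8 female C57BL/6 mice of 10 to 12 weeks. PNY removed the left lung and the remaining lung was measured, and every group, SHAM included, had received ketamine and xylazine, intubation, mechanical ventilation, ampicillin, buprenorphine and an opened chest. No lung of an unoperated mouse was among the arrays. The 6 hour level was therefore read only against the later levels, and "higher" or "lower" below means higher or lower at 6 hours than at 1, 3 and 7 days. The hour of day at which lungs were taken is not given in the sources used here, so that time after surgery and time of day cannot be told apart.

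Surgery and anaesthesia raise circulating glucocorticoids, which bind the glucocorticoid receptor and switch on a set of target genes in most tissues, the lung among them. Injured tissue also releases cytokines of the IL-1 and IL-6 families, which act through NF-kB and STAT3 to induce chemokines and acute phase proteins and to draw in neutrophils. Metallothioneins, small proteins that bind zinc and copper, respond to glucocorticoids, cytokines and metals alike, and the transcription factor NRF2 governs a further group of antioxidant genes.

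All values were log2 levels of single probe sets, with 1 probe set for each of 18193 genes. Lung markers were high on every array: Sftpc, the surfactant protein of alveolar type II cells, lay between 14.65 and 14.69, and Scgb1a1 of club cells between 14.71 and 14.82. The 2 arrays of 6 hours lay closer to each other (SD of the difference over probe sets 0.245) than to any later array (0.330 to 0.415). The later arrays lay 0.219 to 0.374 from each other, so that some of them were as far apart. The lower quartile of an array's values lay between 4.02 and 4.18, and the deposited values carry no detection call, so that a level at or near it is not shown to be above background. Of the arrays, SHAM of 6 hours had the highest lower quartile (4.18) and the lowest upper quartile (8.04), and the part of this in the results was not tested. The PNY array of 1 day stood apart in carrying transcripts of immature thymocytes, with a Rag1 level of 9.60 against 2.56 to 3.62 on the other 7 arrays. Results on lymphocytes are therefore also given without that array.

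By limma, with surgery as a covariate, 575 of 18193 genes were higher at 6 hours with an adjusted p under 0.05, which is 3.16% of the genes tested, and 1275, or 7.01%, were lower. Of these, 324 higher and 653 lower genes changed at least 1.5-fold, and 105 and 133 at least 2-fold. The median difference over all genes was -0.009. Counts of list members given below are to be read beside these shares. Of the called genes, 479 of the 575 higher and 1178 of the 1275 lower ones lay above the median level of all probe sets (5.92). The share of all 18193 genes above that level was not counted. Each gene was represented by its probe set of highest mean, so that these counts do not set the called genes apart. Among the called genes, 574 of the 575 higher ones lay above every later array on both 6 hour arrays, and 1267 of the 1275 lower ones lay below every later array, whereas over all genes tested both 6 hour arrays lay above the later range for 11.3% and below it for 18.4%. The calls rested on both 6 hour arrays: 3336 probe sets were called with both, and far fewer when either was left out. Each of the 3336 kept its sign in both of these fits, which is close to what the call itself requires. With 2 arrays against 6 an exact permutation test (two-sided by doubling the smaller tail, 28 splits) cannot give a p below 0.0714, so that the tests by gene lean on the spread that limma pools over all probe sets.

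**Figure D1:**
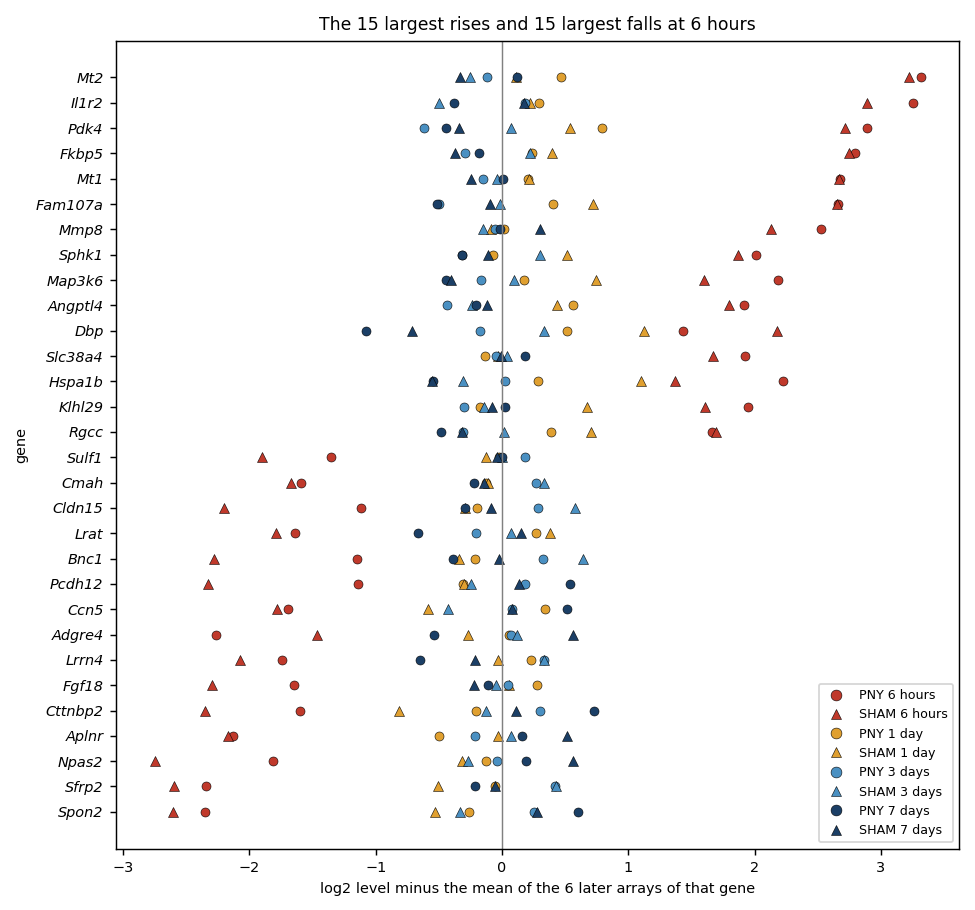
Log2 level of each gene on each of the 8 arrays, minus the mean of that gene's 6 later arrays (x axis), for the 15 genes most raised and the 15 most lowered at 6 hours (y axis). Circles are PNY and triangles SHAM, and colours give the time point. Both 6 hour arrays (red) lie outside the later arrays in each of the 30 genes, as the choice of these genes required.

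A pair of metallothioneins was among the genes most raised at 6 hours, and Mt2 had the largest difference of the 575. Mt2 was at 13.57 after PNY and 13.48 after SHAM at 6 hours, and between 9.93 and 10.72 (median 10.25) on the later arrays. Mt1 was at 13.45 after either surgery at 6 hours and between 10.53 and 10.99 (median 10.76) later. In both genes the 6 hour arrays nearly coincided and the later arrays lay far below them. The difference was 3.27 ± 0.17 (SE), or 9.66-fold, for Mt2 and 2.67 ± 0.14, or 6.38-fold, for Mt1, each with an adjusted p of 0.000118 (limma). The 250 bases upstream of the start of each gene (RefSeq, GRCm38.p6) are shown because metallothionein genes are best known for the metal response element. It was searched here by the loose pattern TGCNCNC on both strands. Matches are set in capitals, and a match to this pattern need not be such an element. The Mt2 window (chr8:94172368-94172617, plus strand) held 5 matches and the Mt1 window (chr8:94178839-94179088, plus strand) 1 match. The windows stop at the annotated start and sequence beyond them was not searched, so that these counts do not compare the promoters of the genes.
Mt2: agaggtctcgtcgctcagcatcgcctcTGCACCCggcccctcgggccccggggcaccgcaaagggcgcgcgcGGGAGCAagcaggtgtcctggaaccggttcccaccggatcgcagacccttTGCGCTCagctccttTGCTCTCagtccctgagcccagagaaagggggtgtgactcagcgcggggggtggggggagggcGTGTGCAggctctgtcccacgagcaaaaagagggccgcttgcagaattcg
Mt1: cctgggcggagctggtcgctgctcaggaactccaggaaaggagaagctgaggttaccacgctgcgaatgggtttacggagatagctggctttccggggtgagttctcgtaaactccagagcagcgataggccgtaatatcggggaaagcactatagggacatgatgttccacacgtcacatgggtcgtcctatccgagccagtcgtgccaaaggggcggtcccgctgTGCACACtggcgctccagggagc
The letters are short and common. They occurred in 44.4% of all 32851 promoter windows of that length, or for 47.2% of the 27025 genes with a window, and for 8 of the 11 measured members of the metallothionein and NRF2 list that had a window, so that a match describes the sequence and is no evidence of binding.

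The metallothionein and NRF2 list had 15 measured members, of which 11 were higher and 0 lower, with a median difference of 0.94. Besides the metallothioneins these included Hmox1, the heme-degrading enzyme, which was at 9.81 after PNY and 9.26 after SHAM and between 8.19 and 8.30 later (difference 1.30 ± 0.12, adjusted p = 0.00117, limma). Srxn1, which repairs oxidised peroxiredoxins, was 2.25-fold higher. Slc7a11, the cystine importer that feeds glutathione synthesis, was called higher at 5.56 and 5.00, against later values of 3.73 to 4.57 that are near the lower quartile of the arrays. The subunits of the enzyme of the first step of glutathione synthesis, Gclm and Gclc, differed by 0.94 and 0.80. Nfe2l2, which encodes NRF2 itself, differed by 0.06 and was not called. Omitting PNY of 6 hours left 6 called members, and omitting SHAM of 6 hours left 5.

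A further 5 of the 15 genes with the largest positive differences were outside the lists. In all 15 both 6 hour arrays lay above the later ones, as the choice of these genes required. Sphk1, the kinase that makes sphingosine 1-phosphate, was at 10.11 after PNY and 9.97 after SHAM and between 7.79 and 8.61 (median 8.01) later, a difference of 1.94 ± 0.18 (adjusted p = 0.00115, limma). Slc38a4, an amino acid transporter, was at 8.82 and 8.57 against 6.76 to 7.08 (median 6.88), a difference of 1.80 ± 0.11 (adjusted p = 0.00025). Map3k6, a stress kinase, Klhl29 and Rgcc, a regulator of the cell cycle, were 3.72-fold, 3.44-fold and 3.20-fold higher.

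Of 26 measured glucocorticoid-responsive genes, 21 were higher and 0 lower, and the median difference was 1.03. Fkbp5, a co-chaperone of the glucocorticoid receptor, was at 11.71 after PNY and 11.66 after SHAM, against 8.54 to 9.32 (median 8.94) later. Pdk4, which restrains the oxidation of glucose by inhibiting pyruvate dehydrogenase, was at 10.13 and 9.96, against 6.62 to 8.03 (median 7.11). Fam107a was at 10.58 on both 6 hour arrays, against 7.41 to 8.65 (median 7.87). In each of these 3 genes the 6 hour arrays nearly coincided, and the highest later value was on an array of 1 day. The differences were 2.77 ± 0.21 (adjusted p = 0.000504, limma), 2.80 ± 0.35 (adjusted p = 0.00306) and 2.66 ± 0.28 (adjusted p = 0.00169). Angptl4, an inhibitor of lipoprotein lipase, was 3.62-fold higher and Cdkn1a, an inhibitor of cyclin-dependent kinases, 2.87-fold higher.

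Other targets that serve as standard readouts of the receptor were named after their values were seen. Tsc22d3 (GILZ) was at 12.31 and 12.36 at 6 hours and at 10.94 to 11.65 later, a difference of 1.08 ± 0.16 (adjusted p = 0.00611, limma). Klf9 and Klf15, transcription factors under direct control of the receptor, differed by 0.97 and 1.51. Zbtb16, also a known target, was at 10.77 and 10.81 against a wide later range of 7.45 to 10.24, and its difference of 2.19 ± 0.59 had an adjusted p of 0.0548 (limma). The receptor gene, Nr3c1, was at 9.76 and 9.78 against 9.98 to 10.31 (difference -0.37, adjusted p = 0.0629), and Hsd11b1, which regenerates active glucocorticoid within cells, differed by 0.09. With PNY of 6 hours omitted 4 of the 26 genes were called, and with SHAM of 6 hours omitted 5, while the median stayed at 0.98 and 1.08. The mean level of the list was 10.96 on both 6 hour arrays and between 9.64 and 10.06 on the later ones, with the highest later values at 1 day.

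**Figure D2:**
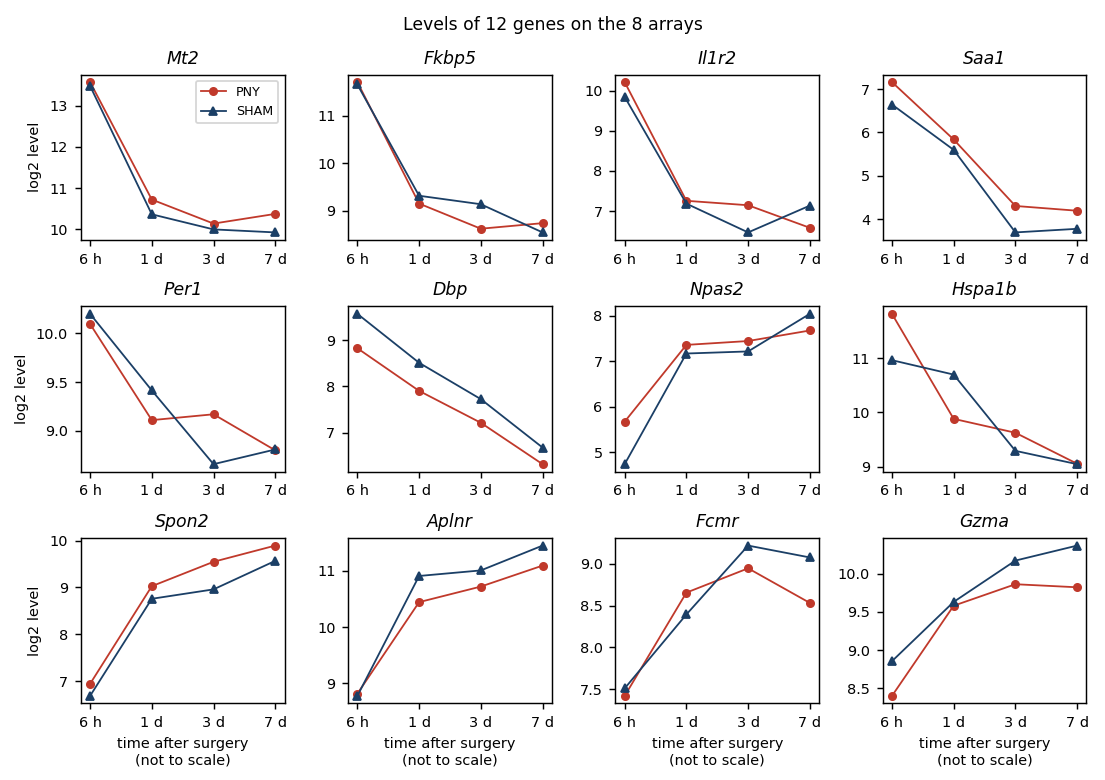
Log2 level (y axis, a separate range for each gene) of 12 genes at 6 hours, 1, 3 and 7 days after surgery (x axis, not to scale), with 1 array per point, PNY as red circles and SHAM as blue triangles. Mt2, Fkbp5 and Il1r2 are far above their later levels at 6 hours, Dbp declines at each step, and Npas2, Spon2, Aplnr, Fcmr and Gzma are lowest at 6 hours.

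Genes of the circadian clock differed in opposite directions. The clock is a feedback loop in which the activators encoded by Arntl, Clock and Npas2 drive the Per and Cry repressors and the output factors Dbp and Tef through E-boxes. Of 19 measured members 7 were higher and 1 was lower, with a median difference of 0.90. The median was 0.52 when all probe sets of each gene were averaged, and 0.41 against 1 day alone. Per1 was at 10.10 after PNY and 10.20 after SHAM and between 8.66 and 9.41 (median 8.96) later, and the difference was 1.16 ± 0.19 (adjusted p = 0.00892, limma). Tef was 2.45-fold and Per2 2.22-fold higher. Npas2 was at 5.67 and 4.74 against 7.17 to 8.05 (median 7.41), a difference of -2.28 ± 0.26 (adjusted p = 0.00229), and was the only called member below its later range.

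Dbp was lower at each later time point than at the one before, in both surgeries. It was at 8.82 after PNY and 9.57 after SHAM at 6 hours, at 7.90 and 8.51 at 1 day, at 7.21 and 7.72 at 3 days and at 6.32 and 6.67 at 7 days. The difference of 6 hours from later was 1.81 ± 0.47 and its adjusted p of 0.0498 (limma) lay at the threshold. Nr1d1 and Nr1d2, the REV-ERB repressors, were named after their values were seen. They differed by 1.15 and 1.34 with adjusted p-values of 0.142 and 0.0963 over all later arrays, but with 0.00152 and 0.000545 against 7 days (limma). Arntl differed by -0.58 (adjusted p = 0.165). Per1 is also in the glucocorticoid-responsive list. The higher clock genes numbered 2 without PNY of 6 hours and 1 without SHAM of 6 hours.

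The 250 bases upstream of both annotated starts of Per1 are shown because this gene belongs to both groups, with the E-box of the clock activators (CACGTG, which reads the same on both strands) in capitals. The distal window (chr11:69098699-69098948, plus strand) held 1 E-box and the proximal one (chr11:69099902-69100151, plus strand) none (RefSeq, GRCm38.p6).
Per1 distal: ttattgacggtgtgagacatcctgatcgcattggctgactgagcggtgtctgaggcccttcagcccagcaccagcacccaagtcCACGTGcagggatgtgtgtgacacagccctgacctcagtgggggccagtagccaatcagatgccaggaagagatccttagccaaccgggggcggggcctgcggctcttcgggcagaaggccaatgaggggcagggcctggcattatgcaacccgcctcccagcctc
Per1 proximal: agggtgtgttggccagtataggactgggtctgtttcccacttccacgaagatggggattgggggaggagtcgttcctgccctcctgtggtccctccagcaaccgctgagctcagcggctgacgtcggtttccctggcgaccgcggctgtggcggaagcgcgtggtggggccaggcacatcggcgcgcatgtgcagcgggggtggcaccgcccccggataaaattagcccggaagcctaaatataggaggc
Of 17 clock genes with a window 5 held an E-box in 1 of their windows, against 6.9% of all 27025 genes with a window. The D-box, searched as TTATGNAA on both strands and bound by the products of Dbp and Tef, was in windows of 2 of the 17 clock genes and of 3.6% of all genes. No match says only that these letters are not in the window.

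Inflammatory genes were raised in part. Of 12 members of the IL-1 family and its receptors 4 were higher and 0 lower (median difference 0.26). They were the decoy receptor Il1r2, the receptor antagonist Il1rn, the accessory chain Il1rap and the IL-18 accessory chain Il18rap. Il1r2 was at 10.22 after PNY and 9.85 after SHAM and between 6.47 and 7.25 (median 7.14) later, a difference of 3.07 ± 0.23 or 8.41-fold (adjusted p = 0.000504, limma). The ligand Il1b, named after its values were seen, was at 9.06 and 9.67 against 8.12 to 9.06, and its difference of 0.83 had an adjusted p of 0.0593. Of the called members Il1rn passed only just, with an adjusted p of 0.0498. Omitting PNY of 6 hours left 1 called member of this list, and omitting SHAM of 6 hours 2.

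Of 15 genes of the IL-6 family and STAT3 targets 5 were higher and 0 lower (median 0.45). Socs3, the feedback inhibitor of this pathway, was at 10.39 and 10.26 against 8.75 to 9.40 (median 9.29), a difference of 1.11 ± 0.16 (adjusted p = 0.00564, limma). Cebpd, a factor that drives acute phase genes, was 2.00-fold higher and is also in the glucocorticoid-responsive list. Stat3, the cytokine Osm and its receptor Osmr were 1.41-fold, 1.49-fold and 1.43-fold higher. Among acute phase and antimicrobial genes 5 of 23 were higher and 0 lower (median 0.12). Saa1, a serum amyloid, was at 7.16 and 6.64 at 6 hours, at 5.84 and 5.60 at 1 day and between 3.69 and 4.30 at 3 and 7 days, and Saa2 was at 5.82 and 5.73 against 4.09 to 5.15 later, so that the lowest later values of both were near the lower quartile of the arrays. The fibrinogen chain Fgg was 1.90-fold higher. The chain Fga was called higher at 5.92 and 4.79, against later values of 3.27 to 4.01, all under the lower quartile of every array. Leaving out either 6 hour array left 1 called member of the IL-6 list and 1 or 0 acute phase genes, and leaving out either array of 3 days left 3 acute phase genes.

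Immediate early factors, which respond to stimuli within minutes to hours, were raised in 7 and lowered in 1 of 29 (median 0.18). Maff, a small MAF factor, was at 9.80 and 9.60 against 8.15 to 8.66 (difference 1.28 ± 0.11, adjusted p = 0.00101, limma). Csrnp1, Fosl1, Fosl2 and Zfp36, the last of which encodes an RNA-binding protein that destabilises cytokine messages, were 1.95-fold, 1.67-fold, 1.64-fold and 1.62-fold higher. Of the classical members Fos was at 10.63 and 10.66 against 9.77 to 10.86, and Egr1 at 9.35 and 9.68 against 8.68 to 10.67. Both 6 hour values lay inside the later range for these 2 genes, which were named after their values were seen. The 7 higher factors became 2 without PNY of 6 hours and 1 without SHAM of 6 hours.

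Of 15 NF-kB subunits and feedback genes 2 were higher and 2 lower (median -0.03). Nfkbia, the inhibitor that NF-kB induces and also in the glucocorticoid-responsive list, was higher by 0.41 and Birc3 by 0.58. Nfkbie was 1.65-fold and the kinase gene Ikbke 1.81-fold lower. Nfkbia lost its call when either array of 3 days was left out, and Nfkbie after a second quantile normalization. The chemokine ligands were likewise divided, with 3 of 30 higher and 3 lower (median -0.05), beside 3.16% and 7.01% of all genes. Ccl17, Ccl22 and Ccl11, ligands of the receptors CCR4 and CCR3, were 2.17-fold, 2.10-fold and 2.04-fold higher. Ccl11 lost its call when either array of 3 days was left out. Cxcl12, the chemokine that retains cells bearing CXCR4, was at 8.59 and 8.79 against 9.80 to 10.16 (difference -1.27 ± 0.12, adjusted p = 0.00112, limma). Ccl5, which is also in the NK and cytotoxic list, was 1.79-fold lower. Among interferon-stimulated genes 0 of 26 were higher and 1, Bst2, was lower.

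Markers of neutrophils were measured beside these genes because neutrophils themselves carry Il1r2. Of 20 markers 5 were higher and 0 lower, with a median difference of 0.43. The rise was not uniform: 14 of the 20 had a difference above 0, and the lowest difference was -0.56. On both 6 hour arrays 1 marker lay below its later range. The mean level of the list was 8.29 to 8.48 at 6 hours against 7.36 to 8.03 later. Besides Il1r2 the 5 called markers were Mmp8, Cxcr2, Clec4d and Trem1. Mmp8, the neutrophil collagenase, was at 9.60 and 9.21 against 6.93 to 7.38 (difference 2.32 ± 0.14, adjusted p = 0.00025, limma). Cxcr2, Clec4d and Trem1 were 2.62-fold, 2.23-fold and 1.60-fold higher. The most abundant neutrophil markers, S100a8 and S100a9, were at 13.24 and 13.14 and at 12.61 and 12.54 at 6 hours, above later ranges of 10.85 to 12.80 and 10.12 to 11.93, with adjusted p-values of 0.165 and 0.0977. Of these markers 3 were called when either array of 3 days was left out and 2 when either array of 6 hours was. The part of neutrophil RNA in the inflammatory results was not tested. In bulk RNA, more or fewer cells of a type and more or less RNA per cell cannot be told apart.

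Stress pathways were split within their lists. Of 27 heat shock and unfolded protein response genes 8 were higher and 5 lower (median -0.06). The inducible cytosolic chaperones Hspa1b and Hspa1a were 3.47-fold and 2.84-fold higher, and the members that were lower were Sdf2l1, Pdia6, Manf, Calr and Hspa5, proteins of the endoplasmic reticulum. Herpud1, a stress protein of the same compartment, was higher, at 11.71 and 11.91 against 10.54 to 11.16 later (difference 0.96 ± 0.12, adjusted p = 0.00354, limma). Hspa1b was at 11.82 after PNY and 10.96 after SHAM, at 9.88 and 10.70 at 1 day and between 9.04 and 9.62 at 3 and 7 days, so that the SHAM array of 1 day came near that of 6 hours (difference 1.79 ± 0.42, adjusted p = 0.034, limma). Chac1, Trib3 and Asns, targets of the factor Atf4, were higher by 1.00, 0.77 and 0.67, and Atf4 by 0.47. The Hspa1b and Hspa1a genes are near-identical copies and their probe sets may share signal. Leaving out a 6 hour array left 1 or 2 higher and 0 lower members, and leaving out SHAM of 1 day, PNY of 3 days or SHAM of 7 days left 3, 1 and 2 lower ones.

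The window upstream of Hspa1b (chr17:34959239-34959488, minus strand, RefSeq, GRCm38.p6) is shown with its 1 match to the heat shock element, searched as GAANNTTC on both strands, in capitals.
Hspa1b: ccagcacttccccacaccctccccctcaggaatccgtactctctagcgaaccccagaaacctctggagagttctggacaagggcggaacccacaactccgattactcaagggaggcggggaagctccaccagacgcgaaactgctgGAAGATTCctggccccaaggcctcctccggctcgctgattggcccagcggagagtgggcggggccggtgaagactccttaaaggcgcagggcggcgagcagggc
Such a match was found for 7 of 24 list members with a window, 4 of them among the 8 higher ones, and for 7.7% of all genes.

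Of 14 p53 targets 6 were higher and 2 lower (median 0.21). The higher ones were Cdkn1a, Trp53inp1 (2.54-fold), Pmaip1 (2.02-fold), Sesn2 (1.83-fold), Sesn1 (1.82-fold) and Gadd45a (1.58-fold). Of these, Cdkn1a is also in the glucocorticoid-responsive list. Mdm2, the feedback regulator of p53, differed by 0.15 and was not called. Of 20 genes of hypoxia and glycolysis 5 were higher and 0 lower (median 0). Pfkfb3, an activator of glycolysis, was 2.41-fold, Bnip3 2.12-fold and the glucose transporter Slc2a3 2.01-fold higher, while Vegfa, Ldha and Pgk1 differed by -0.18, -0.11 and -0.03 and were not called. Leaving out a 6 hour array left 1 or 2 of the higher p53 targets and 1 of the higher hypoxia genes.

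**Figure D3:**
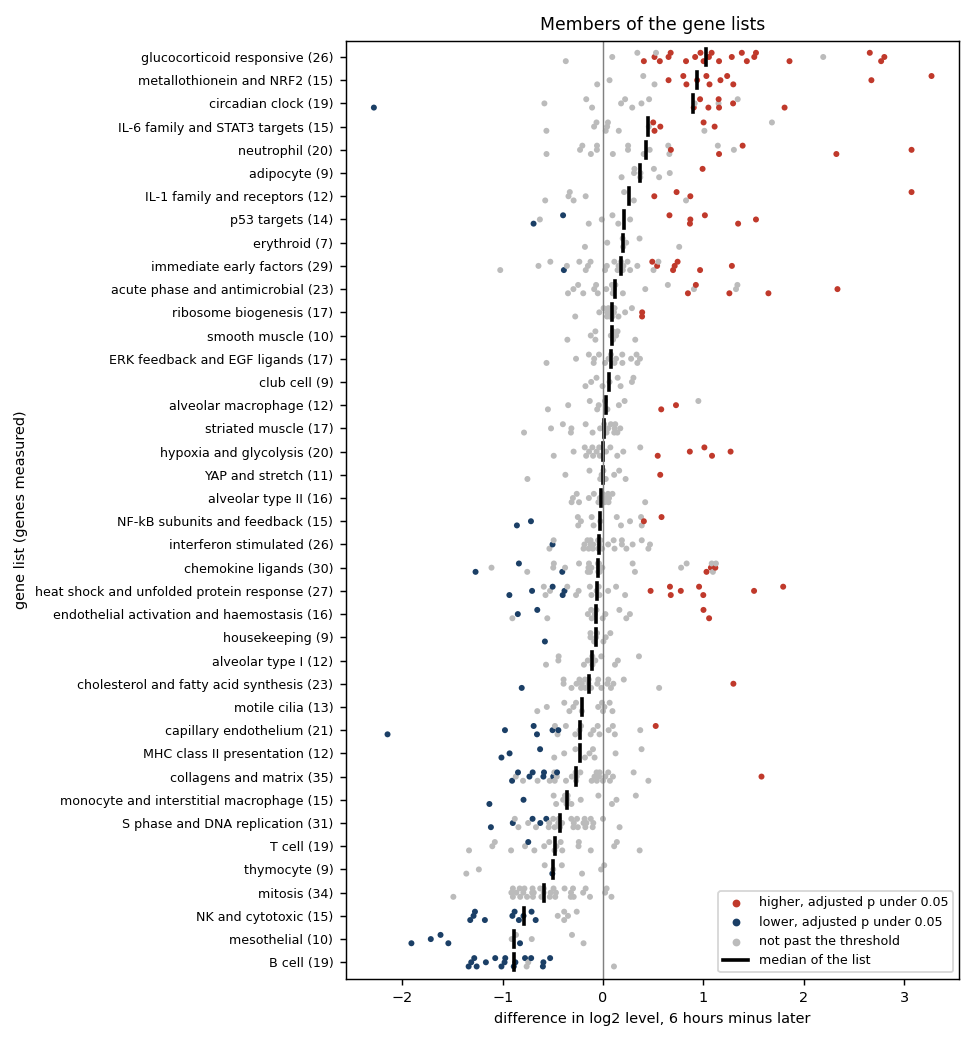
Difference in log2 level between 6 hours and later (x axis) for each measured member of 40 gene lists (y axis, number of genes measured in brackets), with the median as a black bar. Red and blue points passed an adjusted p of 0.05. The glucocorticoid-responsive list has the highest median (1.03), with red points only among its called members, and the B cell list, with blue points only among its called members, and the mesothelial list share the lowest (-0.89).

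Markers of B cells and of NK and cytotoxic cells were lower at 6 hours. Of 19 B cell markers 16 were lower and 0 higher (median -0.89). Fcmr, the Fc receptor for IgM, was at 7.42 after PNY and 7.51 after SHAM and between 8.39 and 9.22 (median 8.80) later, a difference of -1.34 ± 0.20 (adjusted p = 0.00645, limma). Cd79a, a chain of the B cell receptor complex, was 2.49-fold, Ms4a1 (CD20) 2.44-fold, Fcer2a 2.39-fold and Bank1 2.25-fold lower. The mean level of the list was 6.76 to 6.98 at 6 hours and 7.41 to 7.98 later, with no overlap. Absence of overlap is not particular to this list. The housekeeping genes also had none, with list means of 11.66 to 11.67 at 6 hours against 11.72 to 11.80 later. Leaving out the PNY array of 1 day also gave 16 called markers, leaving out the PNY array of 3 days gave 10 and leaving out both arrays of 3 days gave 3. Without the SHAM array of 6 hours 1 was called and without the PNY array none.

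Of 15 NK and cytotoxic markers 10 were lower and 0 higher (median -0.79). Gzma, a granzyme, was at 8.40 and 8.85 against 9.58 to 10.37 (median 9.84), a difference of -1.28 ± 0.18 (adjusted p = 0.00466, limma). Tbx21 (T-bet), the factor of NK and type 1 T cells, was 2.50-fold and Nkg7 2.26-fold lower. S1pr5, which guides NK cells out of lymph nodes and bone marrow, was called lower at 3.45 and 4.23, near or under the lower quartile of the arrays, against 4.44 to 5.85 later. The mean level of the list was 6.27 to 6.50 at 6 hours against 6.95 to 7.52 later. The count was 10 as well without the PNY array of 1 day and 1 or 0 when either 6 hour array was left out.

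Few T cell markers were called. Of 19 only Cd2 was called lower (adjusted p = 0.0098, limma) and the median was -0.48. Cd8a was at 5.80 and 5.66 at 6 hours, at 8.26 on the PNY array of 1 day and between 6.29 and 6.80 on the other 5 later arrays, and its difference of -1.10 had an adjusted p of 0.163. Without the PNY array of 1 day 6 T cell markers were called lower and 0 higher, with a median of -0.36. The pan T cell gene Cd3e, named after its values were seen, was at 7.87 and 8.28 against 7.71 to 8.83. The thymocyte list had 1 of 9 members called lower (Cd1d1). Its mean level was 7.72 on the PNY array of 1 day and 5.21 to 5.59 on the other 7 arrays.

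Of 12 genes of MHC class II presentation 3 were lower: H2-Ob (2.02-fold), H2-DMb2 (1.91-fold) and the regulator Ciita (1.55-fold), of which H2-Ob is also a B cell marker. Of 15 markers of monocytes and interstitial macrophages, Cx3cr1 (2.19-fold) and Ms4a7 (1.73-fold) were lower and none was higher. Over all genes 7.01% were lower. Ciita and Ms4a7 lost their calls when either array of 3 days was left out, and H2-Ob when PNY of 3 days was. Of 12 alveolar macrophage markers Krt79 and Lpl were higher, by 0.73 and 0.58, and none was lower.

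**Figure D4:**
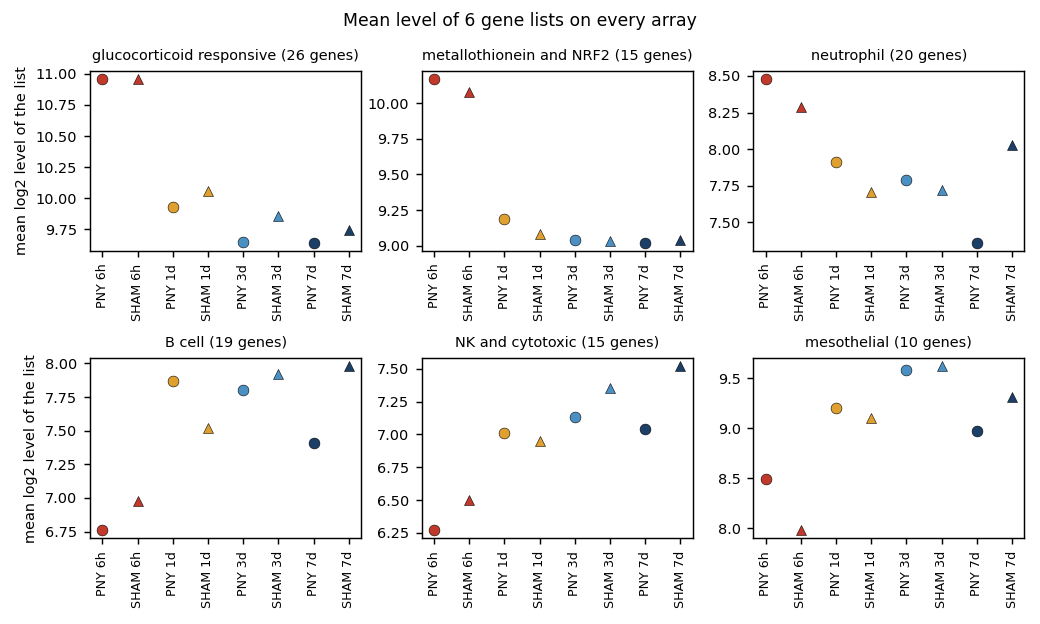
Mean log2 level of the members of 6 gene lists (y axis, a separate range for each list) on each of the 8 arrays (x axis), with PNY as circles, SHAM as triangles and colours for the time points. The 6 hour arrays (red) lie above the later arrays for the upper 3 lists and below them for the lower 3. Such a separation was also seen in other lists, the housekeeping genes among them.

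Mesothelial markers, which mark the cells that cover the lung surface, were lower in 5 and higher in 0 of 10 (median -0.89). Lrrn4 was at 7.64 and 7.31 against 8.74 to 9.72 (median 9.48), a difference of -1.91 ± 0.25 (adjusted p = 0.00384, limma). Bnc1, a transcription factor, Rspo1, an amplifier of Wnt signals, and Muc16, a membrane mucin, were 3.29-fold, 3.08-fold and 2.91-fold lower. The mean level of the list was 8.49 after PNY and 7.98 after SHAM and 8.97 to 9.62 later. Without the PNY array of 6 hours 2 of the 10 were called, without the SHAM array none, and without the PNY array of 3 days 3.

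Among the other genes with the largest negative differences, Spon2, an extracellular matrix protein, was at 6.94 after PNY and 6.68 after SHAM and between 8.76 and 9.89 (median 9.29) later. Sfrp2, a secreted modulator of Wnt signals, was at 5.81 and 5.56 against 7.65 to 8.58 (median 8.10). Their differences were -2.48 ± 0.24 (adjusted p = 0.00129, limma) and -2.47 ± 0.23 (adjusted p = 0.00114). In both the lowest later array lay above the 6 hour arrays, as the choice of these genes required. Fgf18, a growth factor of the lung mesenchyme, was 3.92-fold, Ccn5 3.34-fold and Sulf1, which edits heparan sulphate, 3.08-fold lower. The remaining genes of this group of 15 were Cttnbp2, which binds cortactin (at 4.86 and 4.11, near the lower quartile, against 5.64 to 7.19 later), the myeloid receptor Adgre4 (3.64-fold lower), the endothelial protocadherin Pcdh12 (3.33-fold), Lrat, which stores retinol as esters (3.28-fold), the tight junction gene Cldn15 (3.15-fold) and Cmah, which makes a sialic acid (3.10-fold).

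Of 35 collagen and matrix genes 8 were lower and 1 was higher (median -0.27), beside 7.01% and 3.16% of all genes. Col3a1 was at 12.13 and 11.79 against 12.56 to 13.11 (difference -0.85 ± 0.11, adjusted p = 0.00363, limma), and Serpinh1, the collagen chaperone, Mfap5 and Col5a2 were 1.88-fold, 1.66-fold and 1.63-fold lower. The exception was Lox, the enzyme that crosslinks collagen and elastin, at 11.70 after PNY and 11.17 after SHAM against 9.55 to 10.21 (median 9.85), a difference of 1.58 ± 0.13 (adjusted p = 0.000679). Its paralogue Loxl1 was lower, with a difference of -0.59. Of the lower matrix genes 5 were called when PNY of 3 days or either array of 7 days was omitted, and 0 and 2 without PNY or SHAM of 6 hours, in that order.

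Capillary endothelial genes were lower in 6 and higher in 1 of 21 (median -0.23). Aplnr, the apelin receptor, was at 8.81 and 8.77 against 10.44 to 11.45 (median 10.96), a difference of -2.15 ± 0.20 (adjusted p = 0.00112, limma). Its ligand Apln was 1.97-fold, the VEGF receptor Kdr 1.61-fold and Tie1 1.58-fold lower. With either 6 hour array left out 1 lower member was called. Gpihbp1, which carries lipoprotein lipase across the capillary wall, was 1.44-fold higher. The general endothelial markers Pecam1 and Cdh5, named after their values were seen, differed by 0.06 and 0.12 and were not called. In the list of endothelial activation and haemostasis 2 of 16 were higher, the plasminogen activator Plat (2.08-fold) and tissue factor F3 (2.00-fold), and 2 were lower, Angpt2 (1.80-fold) and Vcam1 (1.58-fold).

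Genes of S phase were lower in 5 and higher in 0 of 31 (median -0.43). Mcm5, a subunit of the replicative helicase, was at 7.17 and 7.15 against 7.88 to 8.79 (median 8.19), a difference of -1.12 ± 0.15 (adjusted p = 0.0045, limma). The count was 3 with PNY of 3 days or SHAM of 7 days omitted, and 0 and 2 with PNY or SHAM of 6 hours omitted, in that order. None of 34 mitosis genes was called in either direction, with a median of -0.59. These lists varied with surgery among the later arrays: the mean level of the mitosis genes was 6.23 and 6.07 at 6 hours, 6.29 after PNY and 6.01 after SHAM at 1 day, 7.17 after PNY and 6.22 after SHAM at 3 days and 8.05 and 6.49 at 7 days. At 1 day it was thus level with 6 hours.

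For other cells of the lung, no marker was called against the later arrays as a whole among 16 markers of alveolar type II cells, 12 of type I cells, 9 of club cells, 13 of motile cilia, 10 of smooth muscle, 17 of striated muscle and 7 of erythroid cells, with list medians from -0.21 to 0.20. Against single times the type I markers Rtkn2 and Akap5 were lower than at 1 day by 0.81 and 0.58 (adjusted p = 0.0384 and 0.0435, limma). Against 7 days the cilia markers Ccdc39 and Dnaic1 differed by -0.94 and -0.76 (adjusted p = 0.0231 and 0.0251), the erythroid marker Slc4a1 by 0.73 (adjusted p = 0.0222) and the type I marker Pdpn by 0.66 (adjusted p = 0.0485). Of 9 adipocyte markers Plin4 was 1.99-fold higher. None of 17 genes of ERK feedback and EGF ligands was called, and of 11 YAP and stretch genes Tnfrsf12a was 1.48-fold higher. Tnfrsf12a was at 9.89 after PNY and 9.30 after SHAM at 6 hours, and between 8.58 and 9.43 later. Its SHAM array of 6 hours thus lay inside the later range, and it was not called without the surgery covariate. Among 17 ribosome biogenesis genes Gnl3 and Wdr43 were each 1.31-fold higher, but neither was called when either array of 3 days was left out. Among 23 genes of lipid synthesis Pmvk was 2.46-fold higher and Dhcr7 1.75-fold lower. Of 9 housekeeping genes Gusb was called (difference -0.58) and the other 8 differed by at most 0.13 either way.

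Set against each later time point in turn, with time as a factor and surgery as a covariate, 325 genes (1.79%) were higher and 424 (2.33%) lower at 6 hours than at 1 day, 340 (1.87%) and 676 (3.72%) than at 3 days, and 423 (2.33%) and 1051 (5.78%) than at 7 days (limma, adjusted p under 0.05). Of the 575 genes higher than the later arrays as a whole, 261 were also called against 1 day, 311 against 3 days and 363 against 7 days. All 575 had the same sign against each, which is close to what the call itself requires. Of the 1275 lower genes 397, 565 and 769 were called, again all with 1 sign, and their median difference was -0.55 against 1 day, -0.59 against 3 days and -0.63 against 7 days. These contrasts share the 6 hour arrays and are given side by side. Mt2, Fkbp5, Il1r2, Pdk4, Aplnr and Lrrn4 were called against each of the 3 time points. Hspa1b was called against 3 and 7 days (adjusted p = 0.0213 and 0.00892, limma) and not against 1 day (adjusted p = 0.106).

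The last question was whether the 6 hour difference depended on the surgery. The test of this interaction called 0 of 18193 genes (0%), with a lowest adjusted p of 0.999 (limma), and 705 genes had an unadjusted p under 0.05. It rests on 1 array of 6 hours per surgery, so that it could detect only differences that are large against the pooled spread. The median difference of the 575 higher genes was 0.70 within PNY and 0.58 within SHAM, and that of the 1275 lower genes -0.55 and -0.62. All had the same sign in both surgeries, which is close to what the call itself requires.

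Among genes above the median level, the 3 furthest apart between the surgeries in each direction are given as values. The thymocyte gene Rag1, whose mean lies below that level, also had a difference between the surgeries of -2.20 on the log2 scale (PNY minus SHAM), through the PNY array of 1 day. Cxcl10, an interferon-induced chemokine, was at 5.74 after PNY and 8.02 after SHAM at 6 hours, with later values of 5.66 to 7.53. Cxcl1, a neutrophil chemokine, was at 8.07 after PNY and 9.57 after SHAM, with later values of 7.33 to 8.12. The cytokine Il6, named after its values were seen, was at 5.09 after PNY and 7.91 after SHAM, with later values of 3.92 to 5.73. In the other direction Adipoq, an adipocyte hormone, was at 8.47 after PNY and 6.89 after SHAM, with later values of 6.23 to 7.72, and Igk, of an immunoglobulin chain, at 8.67 after PNY and 7.39 after SHAM, with later values of 6.71 to 7.45. Ighm, of another such chain, was at 11.09 after PNY and 10.27 after SHAM at 6 hours, at 11.12 and 10.05 at 1 day, at 9.59 and 11.43 at 3 days and at 9.98 and 12.23 at 7 days, so that the surgeries were in the opposite order at 3 and 7 days. For Cxcl10, Cxcl1 and Il6 only the SHAM array lay above every later array. Tnc, a matrix glycoprotein, also differed through the later arrays: it was at 5.56 and 5.62 at 6 hours, and later between 6.57 and 7.99 after PNY and between 5.18 and 6.34 after SHAM.

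**Figure D5:**
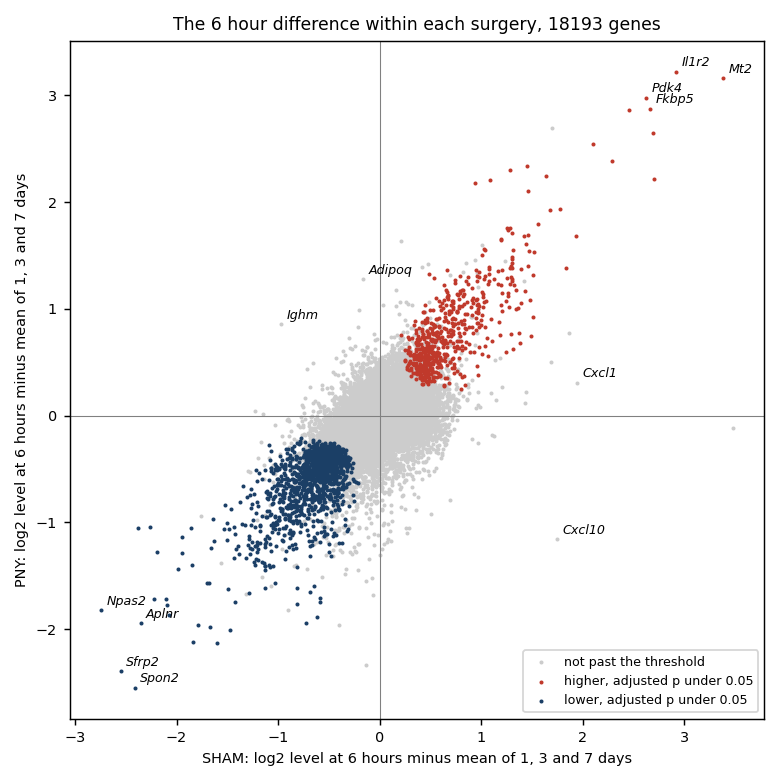
Log2 level at 6 hours minus the mean of 1, 3 and 7 days, within SHAM (x axis) and within PNY (y axis), for 18193 genes, with the genes called in the comparison of 6 hours with later in red and blue. All called genes lie in the quadrants where both surgeries share the sign, and Cxcl10 is among the grey points furthest from them, at 1.75 in SHAM and -1.16 in PNY.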

How the data were processed

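Lung RNA of 8 pools was measured on Affymetrix mouse arrays. The deposited log2 values were made by the authors with RMA, which corrects the background, equalizes the array distributions by quantiles and gives each probe set 1 value. The RMA version is not given in the sources used here, the log base was checked against the range of the values, and no scan or hybridization date was used. Of 45101 probe sets 64 controls were left out. Of the 45037 tested, 34945 carry 1 gene symbol in the array annotation, and each of 18193 genes was represented by its probe set of highest mean.

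The 2 arrays of 6 hours were compared with the 6 later ones with limma 3.58.1 in R 4.3.3, with surgery as a covariate (5 residual and 4.3 prior degrees of freedom) and Benjamini-Hochberg adjustment over all 45037 probe sets. Time as a factor and a surgery by time interaction were fitted likewise. The script was tested on simulated data. Since the arrays are single pools of different times, p-values measure the spread between these arrays and not between mice, and the number of arrays limits the precision.

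The members and the 40 gene lists (760 entries, 51 without a probe set of a single symbol) were chosen with earlier results of these data known. Genes were named by a rule: the 15 largest differences in each direction among called genes above the median level (5.92) whose 6 hour arrays lie outside the later range, up to 5 called members per list or, with fewer than 2 called, the 2 of largest difference, and, for the interaction, 3 genes in each direction above the median level. Genes named beyond it were chosen after their values were seen. Promoter windows are those of RefSeq (GRCm38.p6), cut to the 250 bases before the start. Alternatives were median centring, a second quantile normalization, a filter at the median level, a trended robust prior, no surgery covariate, time as a factor, each surgery alone, and leaving out each array or later time point. Summaries and figures were made with Python 3.11.15, pandas 2.3.3, numpy 2.4.6 and matplotlib 3.10.9.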

Additional observations from a re-analysis of the deposited data

Results flagged for a closer look

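Among the genes named by the rule, 17 had 1 later array far from the other 5 by Dixon's criterion, which chance meets in about 1 group in 20. Over all named genes a number of such gaps would thus arise by chance, and whether 17 exceeds that number was not tested. The 6 later arrays span 3 time points and both surgeries, so that such a gap can also be a difference between those. On the PNY array of 1 day 4 lymphocyte genes were high: Rag1 at 9.60 against 2.56 to 3.62, Ccr9 at 8.86 against 4.87 to 5.66, Cd8b1 at 9.20 against 6.62 to 7.39 and Cd8a at 8.26 against 6.29 to 6.80. Rag1 encodes a recombinase of developing lymphocytes, and the part of thymus tissue in this array was not tested.

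On the SHAM array of 7 days Nppa, a gene of heart atria, was low at 5.52 against 7.69 to 8.31, while Mmp8 was high at 7.38 against 6.93 to 7.10, Trem1 at 7.62 against 7.03 to 7.22 and Zfp36 at 10.5 against 10.09 to 10.24. On the PNY array of 7 days Socs3 was low at 8.75 against 9.21 to 9.40 and Hk2 at 7.92 against 8.19 to 8.27, and Plat was high at 9.18 against 8.57 to 8.77. On the arrays of 3 days Fosl2 was low at 9.04 and Osmr at 9.51, and Sesn1 was high at 9.42, all after SHAM, and Dusp4 was low at 6.92 after PNY. On the SHAM array of 1 day Klhl29 was high at 6.79 and Ms4a7 low at 6.96. In all of these but Nppa and Rag1 both 6 hour arrays lay outside all 6 later ones, the deviating array included.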

How the results depend on the processing

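Probe sets called were 1294 higher and 2042 lower. A limit of 1.5-fold as well left 706 and 1080, and lying outside the later range by 1.5-fold, with no test, 827 and 1259. PNY arrays alone gave 0 and 0 and SHAM arrays alone 3 and 0, each with 1 array against 3. Leaving out 1 array, or both of a later day, gave 109 to 1605 higher and 131 to 2686 lower. The 266 and 335 calls without the PNY or the SHAM array of 6 hours assume that the lone array varies like the others, and the share of higher calls was 38.8% with all arrays and 60.9% without the SHAM array of 6 hours. Leaving out the PNY array of 3 days gave 747 and 1154, and the SHAM array of 7 days 1248 lower. Against 1 day (705 and 786) the filter at the median level gave 1235 and 1685, the trended robust prior 1532 and 2090, and leaving out 1 array 21 to 194 and 6 to 413. Against 3 days (743 and 1096) they gave 1287 and 2325, 1392 and 2446, and 46 to 187 and 21 to 118. Against 7 days (980 and 1747) the filter gave 3040 lower, the prior 1566 and 3169, and leaving out 1 array 151 to 419 and 198 to 454. The interaction called 0 probe sets in all of its fits, with 1962 at an unadjusted p under 0.05 in the reported one. All 3336 called probe sets that a setting tested had their sign in it, and no named gene that was called changed sign. The call nearly fixes these signs, since the settings use the same arrays. Calls were less stable: 50 named genes lost theirs without both arrays of 3 days and 30 without both of 7 days. The cause of each change was not tested, except that fewer arrays or fewer probe sets enter some fits. Second quantile normalization gave 44.6% higher calls and moved the median of all probe sets from 0.028 to 0.01. No paired analysis was possible because the labels give the groups no shared replicate numbers. Each time point and surgery is 1 pool, so the spread between mice is unknown.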

Other observations

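A pair of further gene groups was put together after their members' values were seen, so that their counts describe these arrays and support nothing. The first was retinoid metabolism and receptors, the pathway that stores vitamin A and turns it into retinoic acid. Of 20 measured genes 5 were lower at 6 hours and 0 higher, while the median difference was 0.01. Lrat, which esterifies retinol for storage, was at 8.37 after PNY and 8.22 after SHAM and between 9.34 and 10.39 later (difference -1.72 ± 0.22, adjusted p = 0.00363, limma). Aldh1a2 and Adh1, enzymes of retinoic acid synthesis, differed by -1.27 ± 0.17 (adjusted p = 0.00387) and -1.26 ± 0.13 (adjusted p = 0.00134). Cyp26b1, which degrades retinoic acid, differed by -1.56 ± 0.38 (adjusted p = 0.0401), and the receptor Rarb by -0.58 ± 0.12 (adjusted p = 0.0251). The remaining 15, among them Rara, Rxra and Rbp4, were not called, and 10 of the 20 had a difference above 0. Aldh1a1, another enzyme of retinoic acid synthesis, differed by 0.30 (adjusted p = 0.0928), with both 6 hour arrays above every later one. The count was 3 with PNY of 3 days or SHAM of 7 days omitted, and 3 and 1 with PNY or SHAM of 6 hours omitted, in that order.

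The second was amino acid transport with targets of Atf4, in which 14 of 23 genes were higher and 0 lower (median 0.51). Slc38a4, a transporter of neutral amino acids, was at 8.82 and 8.57 against 6.76 to 7.08 later (difference 1.80 ± 0.11, adjusted p = 0.00025, limma). Slc7a5, the leucine importer, was at 9.08 and 8.99 against 7.34 to 7.69 (difference 1.43 ± 0.10, adjusted p = 0.000504), and its partner chain Slc3a2 differed by 0.61. Slc7a6 and the mitochondrial folate enzyme Mthfd2 differed by 1.03 and 0.71. The serine synthesis genes Phgdh and Psat1 differed by -0.01 and -0.07 and were not called. With PNY or SHAM of 6 hours omitted 4 and 5 of the 23 were called, in that order.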
